A study of Drosophila melanogaster with 15 samples.

Results

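The genes described are those for trehalose turnover and glial sugar transport in the larval brain of Drosophila melanogaster, namely Treh, Tps1, Tret1-1, bumpel, rumpel and kumpel. They were listed by FlyBase symbol with earlier results of these data known. Matched by gene identifier to a deposited table of read counts, 5 of the 6 were found among its 8990 genes. Tps1 was not analysed here. All 5 passed the filter on low counts.

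Trehalose is the main sugar of insect blood, and Tps1, trehalose-6-phosphate synthase, makes it in the fat body. The brain is closed off from the blood by surface glia, the perineurial and subperineurial cells of the blood-brain barrier. Perineurial glia take up trehalose through the carrier Tret1-1, Treh (trehalase) splits it into glucose, and glycolytic glia pass lactate and alanine on to neurons. The genes bumpel, rumpel and kumpel encode solute carriers of the sodium-coupled SLC5 family that are expressed in glia.

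The series measured polyadenylated RNA in 15 libraries, each made from 3 brains of female larvae in the late L3 stage, the last larval stage, grown at 25 °C, with 3 libraries for each of 5 genotypes. Its title concerns small brains that arise with chromosomal instability. CDXY (C(1)DX/Y) had its 2 X chromosomes joined as the compound C(1)DX and a Y chromosome, and CDXX (C(1)DX/X) had C(1)DX and a free X, hence 3 copies of X. C2L had its 2 copies of the arm 2L joined as the compound C(2L)SH1, and T2L was read by elimination as C(2L)SH1/+, with 3 copies of 2L. Brains of the controls CDXY and C2L were taken at 5 days from egg laying and those of CDXX and T2L at 8 days, so age and genotype cannot be told apart in these comparisons. Oregon is a laboratory strain, and its age is not given in the labels. The replicates of a genotype came from separate days and carry the batch labels 4, 5 and 6. The labels describe no transgene, driver or drug in any of the groups.

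Library totals ran from 22949943 to 28272926 counts. The tissue showed its defining glial marker, with repo between 102 and 178 CPM (counts scaled to the size of the library) in the 15 libraries. In bulk RNA, fewer cells of a type and less RNA per cell cannot be told apart. A gene was called changed when its p-value from edgeR's quasi-likelihood F test, Benjamini-Hochberg adjusted over 8981 genes, was under 0.05. By that rule 43.9% of all genes tested changed in CDXX against CDXY, 23.1% higher and 20.8% lower, and 15.7% changed in T2L against C2L, 11.6% higher and 4.05% lower. Higher genes made up 52.5% of the calls in CDXX and 74.1% in T2L, or 64.6% and 88.4% when scaling used no gene of X or 2L.

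All 5 genes had a higher mean in CDXX than in CDXY and in T2L than in C2L. In CDXX against CDXY, 3 of 5 rose, against 23.1% of all genes tested: the trehalose carrier Tret1-1 by 5.67-fold, bumpel by 2.24-fold and rumpel by 9.54-fold. Treh and kumpel did not pass the test there. In T2L against C2L 1 of 5 rose, against 11.6% of all genes tested, namely bumpel by 2.13-fold, and that call was lost in several alternative fits. The median log2 fold change over the 5 genes was 1.16 in CDXX and 1.09 in T2L, where the medians over all genes tested were 0.02 and -0.01. In every one of the 5 genes the 3 CDXX libraries lay above the 3 CDXY libraries, as did 27.0% of all genes tested. In T2L against C2L this held for 2 of 5, bumpel and rumpel, against 21.4% of all genes tested. The 5 genes were listed with earlier results of these data known. Within most genotypes they tended to be high or low in the same libraries, so they are not 5 separate cases.

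**Figure D1:**
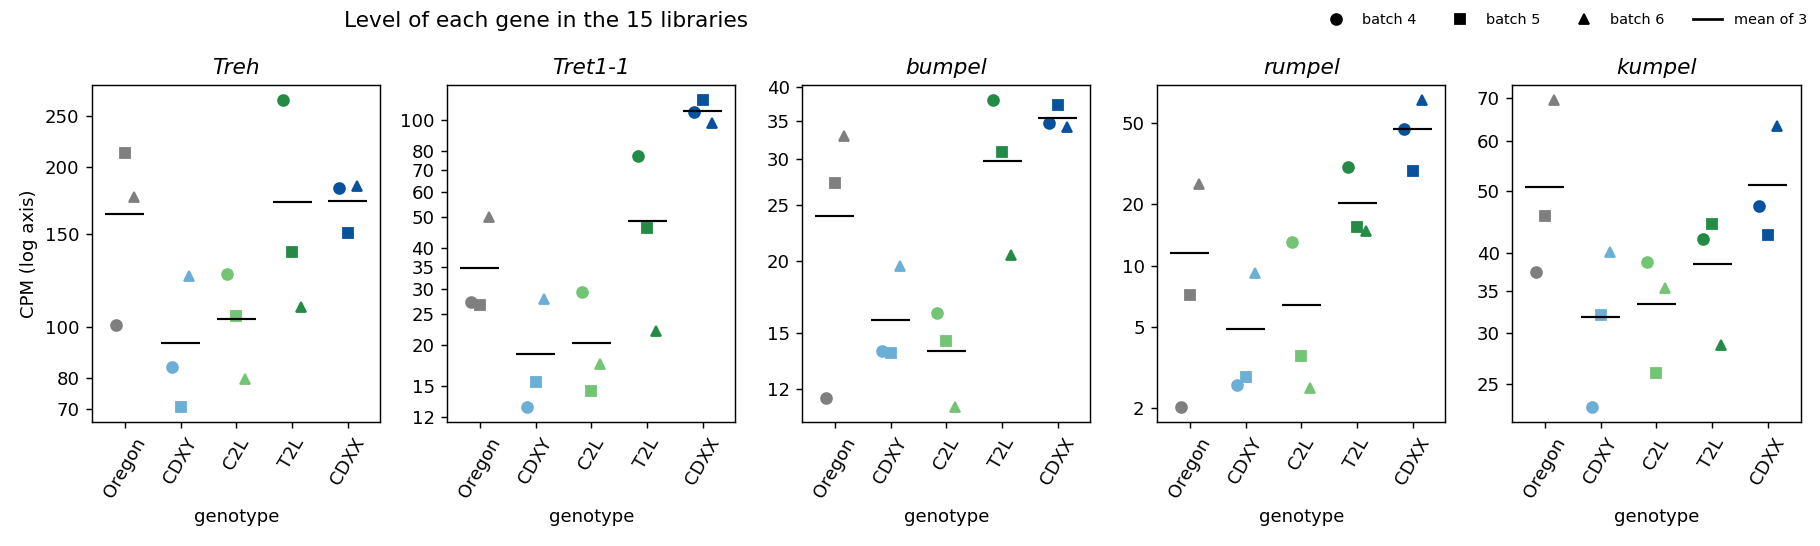
Level of Treh, Tret1-1, bumpel, rumpel and kumpel in each of the 15 libraries, in CPM on a log axis whose range differs between panels; symbols mark the batch and horizontal lines the mean of 3 libraries. The 3 CDXX libraries lie above the 3 CDXY libraries in all 5 panels, and the Tret1-1 panel has CDXX at 98.1 to 115 CPM against at most 77.2 CPM in any other library.

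Treh, whose enzyme trehalase splits trehalose into glucose, lies on chromosome 2R (dm6, 21074018 to 21088945, plus strand). It has 7 annotated transcripts and 12 merged exons with 4369 bp in all. It had the highest level per length of the 5 genes, a mean of 32.2 CPM per kb of exon over the 15 libraries, above 74.6% of the 8930 genes with a length. In CDXY its level was 84.0, 70.8 and 125 CPM in batches 4, 5 and 6. In CDXX it was 183, 151 and 184 CPM. The groups did not overlap, and the CDXX mean of 172 ± 18.9 CPM (SD, n = 3) was 1.85 times the CDXY mean of 93.2 ± 28.1 CPM (SD, n = 3). The log2 fold change was 0.89 (SE 0.35, 95% interval 0.13 to 1.64), and the adjusted p of edgeR's quasi-likelihood test was 0.055, so the gene was not called. It was called at an adjusted p of 0.0224 by the Wald test of DESeq2, 0.0407 with scaling by genes outside X and 2L, 0.0279 in a fit of the 6 libraries alone, and 0.0386, 0.0248, 0.0423 and 0.0376 in edgeR without Oregon 4, T2L 4, T2L 6 or CDXY 6.

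In C2L the level of Treh was 126, 105 and 79.9 CPM, and in T2L it was 268, 139 and 109 CPM. These groups overlapped, with T2L 6 below C2L 4, and the highest Treh level of all 15 libraries was that of T2L 4. The difference was 0.73 on the log2 scale (95% interval -0.02 to 1.48, adjusted p = 0.175 in edgeR). Oregon had 101, 213 and 176 CPM, a span that reached from the level of the 5-day controls to above that of CDXX. The means rose in the order CDXY, C2L, Oregon, T2L and CDXX, and no pair of neighbours in that order differed in the test. Exons of Treh overlap those of Rbpn-5 on the opposite strand by 560 bp, and the strand setting of the counting is not given in the sources used here. Rbpn-5 stayed between 23.6 and 35.4 CPM and had a log2 fold change of -0.24 in CDXX against CDXY (edgeR adjusted p = 0.085).

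Tret1-1 encodes the facilitative trehalose carrier of the perineurial glia and lies on chromosome 2R (dm6, 11665768 to 11674782, plus strand; 9 merged exons, 3375 bp, 2 transcripts). Its span holds the gene Roc2 on the opposite strand with 0 bp of exon in common. In CDXY its level was 12.9, 15.4 and 27.9 CPM in batches 4, 5 and 6. In CDXX it was 106, 115 and 98.1 CPM, all above every library of the other 4 genotypes. The CDXX mean of 106 ± 8.56 CPM (SD, n = 3) stood against 18.8 ± 8.04 CPM (SD, n = 3) in CDXY. The rise was 2.50 on the log2 scale (SE 0.45, 95% interval 1.52 to 3.49, edgeR adjusted p = 0.00134), and it was higher in 3 of 3 batches, by 3.02, 2.89 and 1.81 on the log2 scale. The call held under all 22 alternative fits, with log2 fold changes of 2.27 to 2.89 and adjusted p of 5.81e-08 to 0.00853.

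The level of Tret1-1 in C2L was 29.3, 14.4 and 17.5 CPM and in T2L 77.2, 46.3 and 22.1 CPM. T2L spread over 3.49-fold between its libraries, and T2L 6 lay below C2L 4. The log2 fold change was 1.25 (SE 0.44, 95% interval 0.30 to 2.20) and the adjusted p of edgeR was 0.0744, against 0.0193 by DESeq2 and 0.0234 in edgeR without T2L 6. Oregon had 27.2, 26.7 and 50.2 CPM. Tret1-1 was the only one of the 5 genes called in CDXX against Oregon (log2 fold change 1.62, SE 0.44, edgeR adjusted p = 0.0147), a comparison in which 18.7% of all genes tested rose. That call was lost without Oregon 4 (adjusted p = 0.0535) or Oregon 5 (0.0566). The neighbours T2L and CDXX in the order of Tret1-1 levels differed by 1.13 on the log2 scale at an edgeR adjusted p of 0.0572, in a comparison where 37.6% of all genes tested were called. That value was 0.0153 without T2L 4, 0.0493 without Oregon 6, 0.0478 without CDXY 6 and 0.0205 by DESeq2.

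The sister gene Tret1-2 starts 1152 bp beyond the end of Tret1-1 on the same strand, and how reads common to both copies were assigned is not given in the sources used here. Its level was far lower, with means of 1.09 ± 0.316 CPM in CDXY and 5.79 ± 0.967 CPM in CDXX (SD, n = 3 each). It rose by 2.41 on the log2 scale (SE 0.42, edgeR adjusted p = 0.00106), and in T2L against C2L its log2 fold change was 0.67 (adjusted p = 0.28). No table here measures shared reads; where reads match both copies, their separate values are uncertain.

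The gene bumpel lies on chromosome 3R (dm6, 11416218 to 11418668, minus strand; 8 exons, 1990 bp, 1 transcript). Its level in CDXY was 13.9, 13.8 and 19.6 CPM in batches 4, 5 and 6. In CDXX it was 34.7, 37.3 and 34.1 CPM, the tightest group of the 5 genotypes, with an SD of 1.66 CPM. The groups did not overlap and the log2 fold change was 1.16 (SE 0.33, 95% interval 0.45 to 1.87, edgeR adjusted p = 0.0131). Without CDXY 5 the adjusted p was 0.0506.

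In C2L the level of bumpel was 16.2, 14.5 and 11.2 CPM, and in T2L it was 38.0, 30.9 and 20.5 CPM. The lowest T2L library lay above the highest C2L library. This rise was 1.09 on the log2 scale (SE 0.33, 95% interval 0.38 to 1.80, edgeR adjusted p = 0.0399), and it was higher in 3 of 3 batches, by 1.22, 1.08 and 0.87 on the log2 scale. With batch as a replicate block the adjusted p was 0.0567. The call was also lost without any 1 of 9 libraries, at an adjusted p of 0.146 without T2L 4, 0.145 without C2L 6, 0.0949 without T2L 5, 0.0896 without C2L 5, 0.0645 without C2L 4, 0.0532 without CDXX 4, 0.0525 without CDXY 4, 0.0506 without Oregon 5 and 0.0501 without CDXX 5. Oregon had 11.6, 27.3 and 32.9 CPM, with Oregon 4 among the 5-day controls and Oregon 6 near the CDXX libraries. No neighbours in the order C2L, CDXY, Oregon, T2L, CDXX differed in the test.

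The gene rumpel is the only measured one of the 5 on the X chromosome (dm6, 7418594 to 7422142, plus strand; 5 merged exons, 2557 bp, 2 transcripts), and CDXX had an additional X. Its level in CDXY was 2.60, 2.86 and 9.20 CPM in batches 4, 5 and 6. In CDXX it was 46.4, 29.2 and 64.4 CPM. The groups were far apart, and CDXX 4 and CDXX 6 held the highest rumpel levels of all libraries. Rumpel rose by 3.25 on the log2 scale (SE 0.89, 95% interval 1.33 to 5.18, edgeR adjusted p = 0.0113), higher in 3 of 3 batches by 4.11, 3.31 and 2.80 on the log2 scale, and the call held under all 22 alternatives with adjusted p of 0.000728 to 0.0485. The 1564 X-linked genes tested had a median log2 fold change of 0.45 in the same comparison, and 57.6% of them were called higher. The value for rumpel was 2.80 above that median, and 16 of the X-linked genes had a higher one.

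In C2L the level of rumpel was 13.1, 3.63 and 2.52 CPM, and in T2L it was 30.5, 15.5 and 14.7 CPM. All 3 T2L libraries lay above the C2L libraries, the nearest pair being T2L 6 and C2L 4. The log2 fold change of 1.65 had an SE of 0.84 and a 95% interval of -0.17 to 3.47 (edgeR adjusted p = 0.202, and 0.0813 to 0.451 over the alternatives). In Oregon the level was 2.04, 7.16 and 25.2 CPM. The lowest of these, Oregon 4, rested on 53 counts and was the lowest rumpel level of all 15 libraries. The highest level, in CDXX 6, was 31.5 times as large, the widest span among the 5 genes. In CDXX against Oregon the log2 fold change was 2.02 (edgeR adjusted p = 0.0772), which was called by DESeq2 (0.0476) and without Oregon 6 (0.0161).

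The gene kumpel lies on chromosome 3R (dm6, 25907022 to 25921046, plus strand; 37 merged exons, 8363 bp, 5 transcripts). It varied least of the 5, by 3.01-fold between its lowest and highest library. In CDXY its level was 23.1, 32.1 and 40.2 CPM, and in CDXX it was 47.4, 42.8 and 63.3 CPM. The CDXX libraries lay above the CDXY libraries; CDXY 6 and CDXX 5 came closest. The log2 fold change was 0.69 (SE 0.27, 95% interval 0.10 to 1.28) and the edgeR adjusted p was 0.0577. It was called at 0.0343 by DESeq2, 0.0374 with scaling by genes outside X and 2L, and 0.0473, 0.0371 and 0.0371 in edgeR without Oregon 4, Oregon 6 or CDXY 6.

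In C2L the level of kumpel was 38.8, 26.0 and 35.3 CPM and in T2L 42.2, 44.5 and 28.7 CPM. The groups overlapped, and T2L was higher than C2L in 2 of 3 batches. The difference was 0.21 on the log2 scale (95% interval -0.38 to 0.80, edgeR adjusted p = 0.645). Oregon had 37.4, 45.8 and 69.4 CPM, the last being the highest kumpel level of all libraries. Here T2L stood below Oregon in the order of means (CDXY, C2L, T2L, Oregon, CDXX), while in the other 4 genes it stood above Oregon; no neighbours in this order differed in the test.

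**Figure D2:**
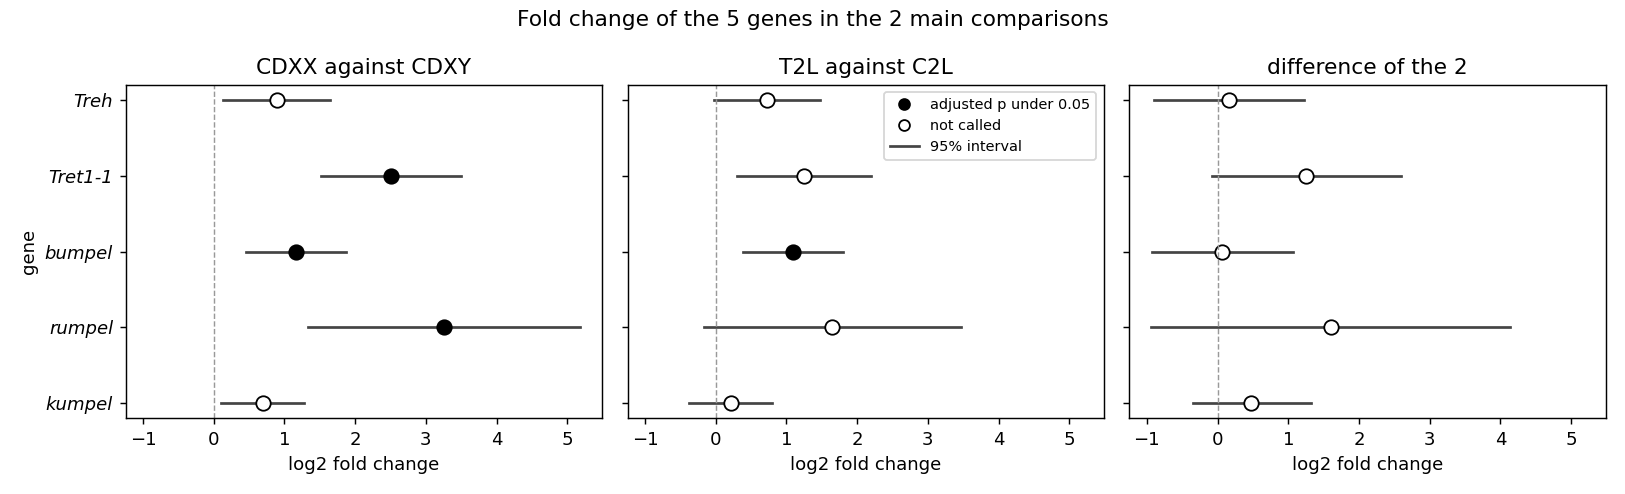
Log2 fold change of the 5 genes in CDXX against CDXY, in T2L against C2L, and the first minus the second, with 95% intervals from the edgeR fit; filled circles mark an adjusted p under 0.05. All 5 circles lie right of 0 in the first 2 panels, and every interval of the third panel includes 0.

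Whether the 2 main comparisons differed was tested as the contrast of their fold changes. None of the 5 genes was called in this difference by edgeR, none had an unadjusted p under 0.05, and DESeq2 called 0, while edgeR called 22.3% of all genes tested. The estimates were 1.25 for Tret1-1 (95% interval -0.08 to 2.59, adjusted p = 0.158), 1.60 for rumpel (-0.94 to 4.14, 0.342) and 0.48 for kumpel (-0.35 to 1.32, 0.384) on the log2 scale. For Treh and bumpel they were 0.16 (-0.90 to 1.22, 0.839) and 0.07 (-0.92 to 1.06, 0.925). All 5 upper bounds lay above 1 on the log2 scale. Rises that were called in CDXX and not in T2L were thus not shown to differ between them.

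Set against the other control, CDXX was above C2L in all 5 genes, with no overlap of the groups (27.1% of all genes tested lay above without overlap). Tret1-1 (log2 fold change 2.38, edgeR adjusted p = 0.00155), bumpel (1.34, 0.00634) and rumpel (2.86, 0.0188) rose, that is 3 of 5 against 23.4% of all genes tested. The call of rumpel was lost without C2L 5 (0.0722), C2L 6 (0.0689) or CDXX 6 (0.0521). In T2L against CDXY, where edgeR called 16.7% of all genes tested, it called 0 of 5, with 4 at an unadjusted p under 0.05, and DESeq2 called 3, Treh (0.0432), Tret1-1 (0.00881) and bumpel (0.0315). In edgeR Tret1-1 was called there with scaling by genes outside X and 2L (0.0413) and without C2L 4 (0.0489), Oregon 6 (0.0433), T2L 6 (0.0158) or CDXY 6 (0.0372), and bumpel without Oregon 4 (0.0152) or T2L 6 (0.043). CDXY and C2L, the 5-day controls, had 0 of the 5 genes called by edgeR and by DESeq2 and 0 at an unadjusted p under 0.05, where edgeR called 2.74% of all genes tested. Against Oregon, all 5 log2 fold changes were below 0 in CDXY and in C2L. Both edgeR and DESeq2 called 0 of them (edgeR called 0.857% of all genes tested in CDXY and 2.14% in C2L), 2 in each comparison had an unadjusted p under 0.05, and bumpel in C2L was called without Oregon 4 (log2 fold change -1.11, adjusted p = 0.0375). T2L against Oregon ranged from -0.40 for kumpel to 0.82 for rumpel, with 0 called by either tool and 0 at an unadjusted p under 0.05, where edgeR called 13.0% of all genes tested. These comparisons share their CDXY, C2L, Oregon and T2L libraries with each other. They also share their CDXX, CDXY, C2L and T2L libraries with the main comparisons.

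The balance among bumpel, rumpel and kumpel was described from levels per kb of exon. Their summed level was 13.6 ± 4.03 CPM per kb in CDXY, 13.5 ± 3.83 in C2L, 22.6 ± 11.8 in Oregon, 27.5 ± 8.31 in T2L and 42.1 ± 7.38 in CDXX (SD, n = 3 each). The share of rumpel in that sum was 12.9% ± 5.94 in CDXY, 16.6% ± 10.5 in C2L, 16.1% in Oregon (7.21% to 28.4% in its 3 libraries), 28.4% ± 5.38 in T2L and 42.3% ± 9.17 in CDXX. The share of kumpel was 28.1% ± 3.63 in CDXY and 14.5% ± 0.713 in CDXX. Counted as reads rather than per length, rumpel made up 8.59% ± 4.12 of the reads of the trio in CDXY and 34.2% ± 6.74 in CDXX (SD, n = 3 each). The lowest CDXX share, 26.7%, lay above the highest CDXY share, 13.3%. The levels of kumpel per length depend on the annotation, since its mean over all libraries was 4.92 CPM per kb over its merged exons and 16.1 CPM per kb over its longest transcript of 2561 bp. The first value places it below rumpel (7.01), bumpel (11.9) and Tret1-1 (13.6 CPM per kb), and the second above them, so the sum and all of the shares per length rest on the merged length. With the longest transcripts instead, a length chosen after seeing the data, the sum was 22.3 ± 6.23 CPM per kb in CDXY and 56.0 ± 10.3 in CDXX, the share of rumpel was 7.92% ± 3.84 and 31.8% ± 6.77, and that of kumpel 55.9% ± 4.32 and 35.6% ± 1.32 (SD, n = 3 each).

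In 4 of the genotypes the same library tended to be the highest, or the lowest, of its genotype in most of the 5 genes. CDXY 6 was the highest CDXY library in 5 of 5 genes, C2L 4 the highest C2L library in 5 of 5, and T2L 6 the lowest T2L library in 5 of 5. Oregon 6 and T2L 4 were the highest of their genotype in 4 of 5, and Oregon 4 the lowest in 4 of 5. In CDXX this was not so, with CDXX 5 the highest in 2 genes and the lowest in 3, CDXX 6 the highest in 3 and the lowest in 2, and CDXX 4 neither in any. The 11 stage genes are timed by the steroid ecdysone. Of these, 8 were at their lowest Oregon level in Oregon 6 and 6 at their lowest CDXY level in CDXY 6. In C2L 4, 7 were at their lowest C2L level, and in T2L 4, 6 at their lowest T2L level. In T2L 6, where all 5 genes were lowest, 5 stage genes were at their highest T2L level and 4 at their lowest. In CDXX 5, 9 stage genes were at their highest CDXX level, and in CDXX 6, 6 were at their lowest. Hr4, a nuclear receptor gene of the ecdysone response, was at 137, 45.2 and 10.2 CPM in Oregon 4, 5 and 6 and at 5.07, 22.0 and 80.3 CPM in T2L 4, 5 and 6, so it was lowest in Oregon 6 and T2L 4, where 4 of the 5 genes were highest. In CDXY it was at 187, 213 and 74.8 CPM, in C2L at 103, 175 and 116 CPM and in CDXX at 5.30, 23.6 and 4.79 CPM. The nuclear receptor gene ftz-f1 had 14.4, 18.0 and 31.2 CPM in Oregon, 12.9, 13.3 and 17.3 CPM in CDXY, 22.3, 14.4 and 17.9 CPM in C2L, 30, 24.6 and 19.1 CPM in T2L, and 42.9, 37.3 and 68.5 CPM in CDXX. Over all genes tested 20.8% fell and 23.1% rose in CDXX against CDXY, and 15.7% were called in T2L against C2L. Of the 11 stage genes 7 fell and 1 rose (ftz-f1) in CDXX against CDXY (4 fell without CDXX 4, and 5 without CDXY 4 or CDXX 6), and in T2L against C2L edgeR called 0, with 1 at an unadjusted p under 0.05 and 1 called by DESeq2. The part of developmental stage in the results was not tested.

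**Figure D3:**
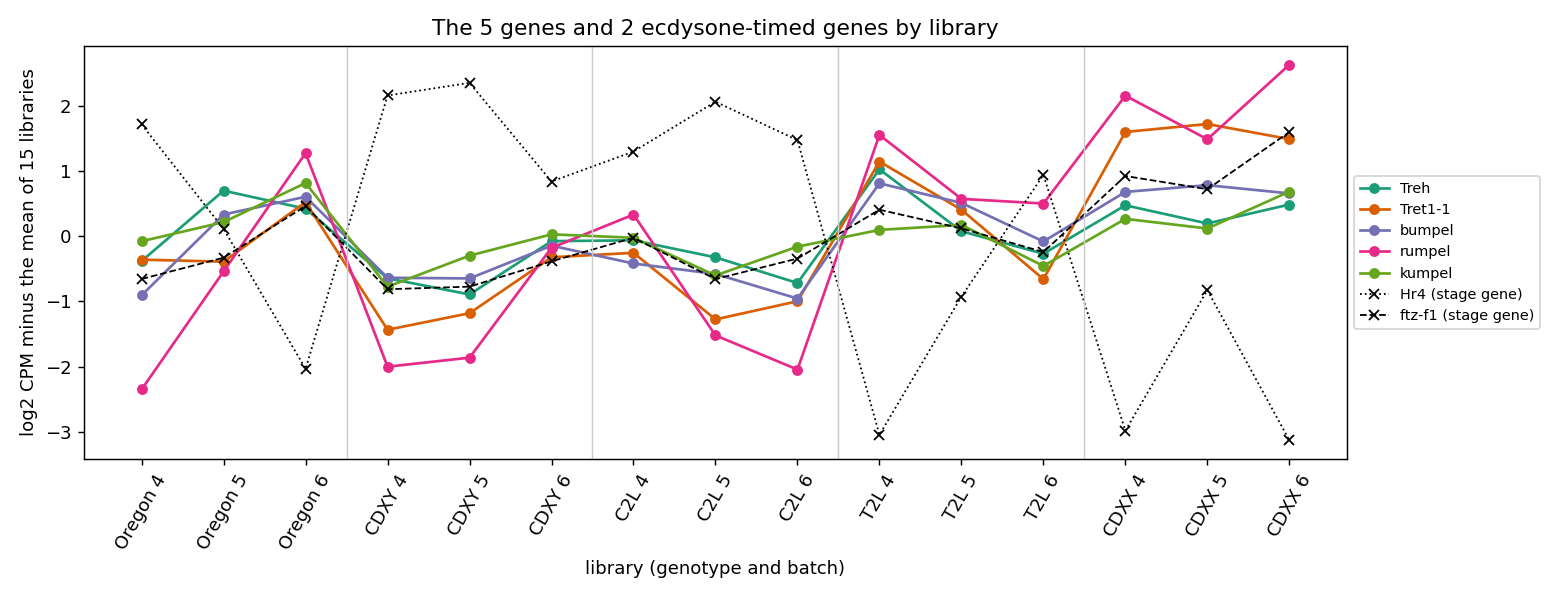
Log2 CPM of the 5 genes and of the ecdysone-timed genes Hr4 and ftz-f1 in each library, minus the mean of the 15 libraries for that gene. Within Oregon and T2L the 5 genes and ftz-f1 tend to be high where Hr4 is low, as in Oregon 6 (Hr4 10.2 CPM) and T2L 4 (5.07 CPM). Hr4 and ftz-f1 were picked from the listed stage genes after their values were seen.

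In CDXX against CDXY 23.1% of all genes tested rose and 20.8% fell, and in T2L against C2L 11.6% and 4.05%. Of 8 other measured genes of trehalose and glycogen metabolism, Treh left aside, 6 rose in CDXX and none fell, with a median log2 fold change of 1.54. They were Glyp, glycogen phosphorylase (2.80, SE 0.63, edgeR adjusted p = 0.00405), CG9485 (2.33), Pgm1, phosphoglucomutase (2.24), AGBE, the glycogen branching enzyme (1.70), Glys, glycogen synthase (1.38) and UGP, which makes UDP-glucose (1.28). Genes of both glycogen synthesis and breakdown were thus among those that rose. In T2L edgeR called 0 of the 8, with a median of 0.88, 3 at an unadjusted p under 0.05 and 1 called by DESeq2 (Glyp, 0.0442), which was also called in edgeR without Oregon 4 (0.0476) or Oregon 6 (0.0409). Glyp had a log2 fold change of 1.69 there (adjusted p = 0.0782) and lies on 2L, whose 1562 genes had a median of 0.47.

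Of 11 measured transporters of the major facilitator superfamily, 6 rose and 3 fell in CDXX, against 23.1% and 20.8% of all genes tested. They were listed as possible sugar carriers, and what each carries was not measured here. Beside Tret1-1 and Tret1-2 the rises were in MFS3 (2.90, SE 0.61, edgeR adjusted p = 0.00296), pippin (2.79), CG8837 (1.43) and CG4607 (0.89). Glut1, a glucose transporter gene, fell by 0.70 on the log2 scale (SE 0.18, adjusted p = 0.00937), from 276 ± 14.4 to 171 ± 6.25 CPM (SD, n = 3 each). The smaller falls of MFS18 (-0.34) and nebu (-0.38) did not pass with scaling by genes outside X and 2L (adjusted p = 0.0513 and 0.072). That of MFS18 was lost without CDXX 6 (0.0584). That of nebu was lost without CDXX 4 (0.0955), CDXX 5 (0.0623) or CDXY 5 (0.0678) and in the 6 libraries alone (0.0627). In T2L 4 of 11 rose, MFS3 (1.97), CG8837 (1.01) and MFS18 (0.48), all on 2L, and nebu (0.56) on 3L. Of all genes tested 11.6% rose there, and of the 2L genes 51.9%, with a median log2 fold change of 0.47. The rise of MFS3 (adjusted p = 0.0399) was lost without C2L 6 (0.143), T2L 4 (0.138), C2L 5 (0.131), T2L 5 (0.0724), CDXY 4 (0.0542) or CDXX 4 (0.0526), and that of CG8837 without C2L 6 (0.0593). The rise of MFS18 in T2L was lost in a fit of the C2L and T2L libraries alone (0.0528). Per kb of exon Tret1-1 made up 2.99% ± 0.907 of the summed level of these 11 genes in CDXY and 7.31% ± 2.10 in CDXX, and MFS3 19.8% and 60.8%.

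Of 8 measured genes of the SLC5 type, 4 rose and none fell in CDXX, CG10444 (2.22, SE 0.41, edgeR adjusted p = 0.00137) and CG5687 (1.39, 0.014) beside bumpel and rumpel. Without CDXY 5 the calls of CG5687 (0.0587) and bumpel (0.0506) were lost. In T2L bumpel was the only one called. Over all genes tested, 23.1% rose in CDXX and 11.6% in T2L. CG7720 was the only one of the 8 with a log2 fold change below 0, at -1.44 in CDXX (adjusted p = 0.172) and -1.75 in T2L (0.17).

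**Figure D4:**
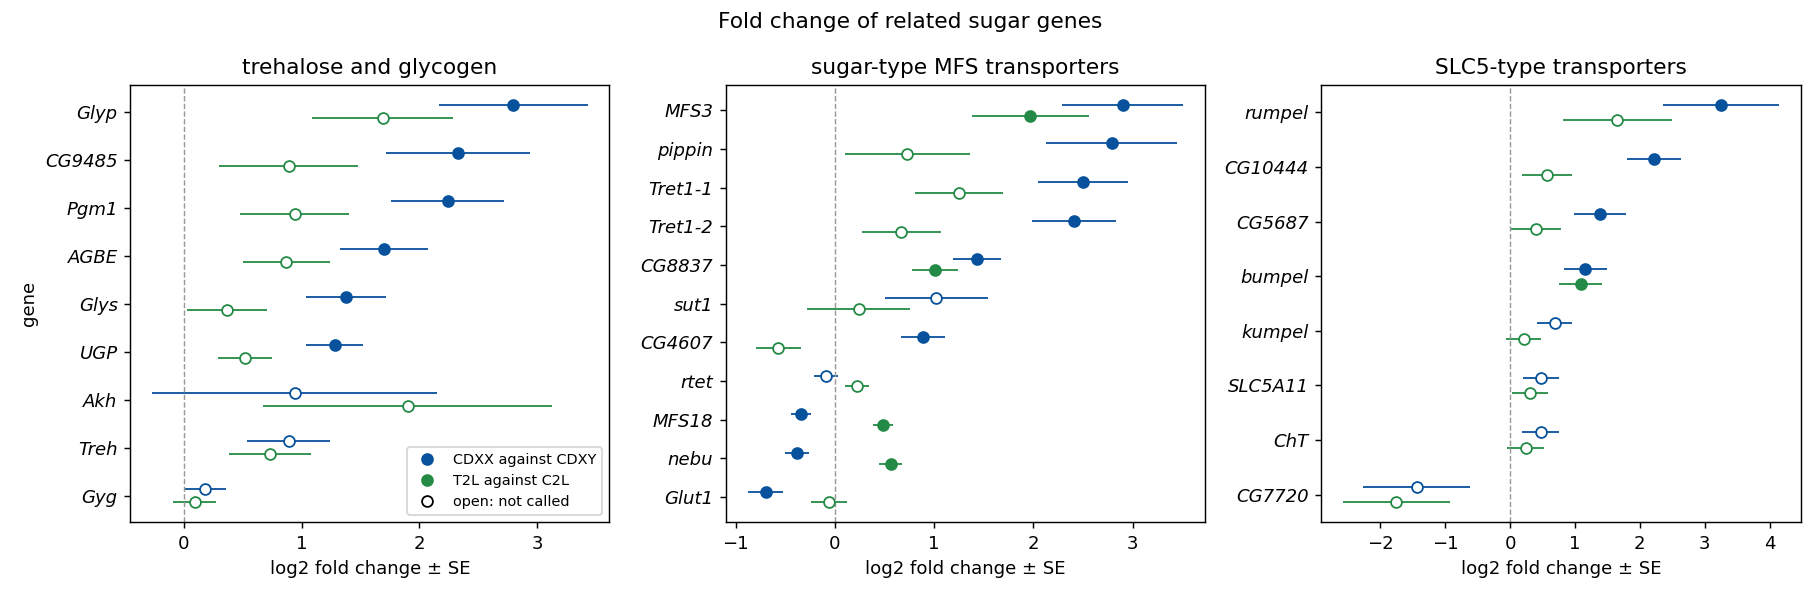
Log2 fold change and SE of the measured genes of 3 lists in CDXX against CDXY (blue) and T2L against C2L (green); filled circles mark an adjusted p under 0.05. In the middle panel MFS3, pippin, Tret1-1 and Tret1-2 lie between 2.41 and 2.90 in blue while Glut1 lies at -0.70.

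Over 4 lists of glial markers, 7 of 28 genes (25.0%) rose and 6 (21.4%) fell in CDXX against CDXY, near the 23.1% and 20.8% of all genes tested, and in T2L against C2L 5 of 28 (17.9%) rose and none fell. Of all genes tested 11.6% rose and 4.05% fell in T2L against C2L. The transcription factor gene repo had a log2 fold change of 0.21 in CDXX against CDXY (edgeR adjusted p = 0.462), and among 5 pan-glial markers 2 rose and 1 fell (1 rose without CDXY 5, CDXX 5 or CDXY 6, and 2 fell without Oregon 4). Of 10 markers of the blood-brain barrier 3 rose, vkg (3.15), Mdr65 (1.31) and moody (1.07), and 2 fell, Nrx-IV (-0.63) and Lac (-1.12). The calls of Mdr65 and moody were lost without CDXX 4 (adjusted p = 0.0595 and 0.0817), CDXY 5 (0.102 and 0.146) or CDXX 6 (0.0707 and 0.0563), and that of moody, which is on X, also without CDXX 5 (0.0957), T2L 5 (0.0513) or CDXY 6 (0.122), while 5 of the 10 rose without CDXY 4. Of all X-linked genes tested, 57.6% rose in CDXX against CDXY. The summed level of the 10 barrier markers was 1058 to 1538 CPM in CDXY and 1360 to 1707 CPM in CDXX. In T2L against C2L edgeR called 0 of these 10, with 2 at an unadjusted p under 0.05 and 1 called by DESeq2 (Mdr65, adjusted p = 0.0409) and with batch as a replicate block (Mdr65, 0.044). Cortex glia markers had 1 of 4 rise and 1 fall in CDXX, and astrocyte-like and neuropil glia markers 1 of 9 rise and 2 fall. Of these 9, 3 rose in T2L against C2L, Obp44a (0.58), Eaat2 (0.65) and alrm (1.15), with 5 called by DESeq2. Their summed level was 5390 to 6074 CPM in C2L and 7952 to 9499 CPM in T2L, without overlap. The call of alrm was lost without T2L 4 (adjusted p = 0.171), C2L 6 (0.135), C2L 5 (0.0692), T2L 5 (0.0553), CDXY 6 (0.0539) or CDXY 4 (0.0538) and in the 6 libraries alone (0.0989), and that of Eaat2 without C2L 6 (0.107), C2L 4 (0.101), T2L 4 (0.0824), T2L 5 (0.0601) or T2L 6 (0.0552). The cortex glia gene wrapper (0.38) and the pan-glial gene nrv2 (1.15) rose as well, 1 of 4 and 1 of 5 markers, and DESeq2 called 3 of the 4 cortex glia markers. The part of the glial cell types in the results was not tested.

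Markers of muscle and of hemocytes, the blood cells, were among the genes that rose in CDXX against CDXY. Of all genes tested, 23.1% rose there, beside 61.5% of the muscle, 33.3% of the hemocyte and 16.7% of the fat body markers. In T2L against C2L 11.6% of all genes tested rose, beside 23.1% of the muscle, 11.1% of the hemocyte and 0% of the fat body markers. Neuron markers had 20% rise in CDXX against CDXY and 10% in T2L against C2L. None of the neuroblast or of the trachea and ring gland markers was called in either comparison. Of 13 muscle markers 8 rose in CDXX against CDXY (5 without CDXY 4, CDXY 5 or CDXX 5). A single one fell, Tm1 (log2 fold change -0.26, edgeR adjusted p = 0.0471), a call lost with scaling by genes outside X and 2L (0.165), in the 6 libraries alone (0.146), and without any 1 of 11 libraries, with adjusted p of 0.0548 (without C2L 5) to 0.174 (without CDXX 4). Against C2L 3 rose in T2L, Mlc2 (2.41), TpnC73F (1.86) and Msp300 (0.72), and none fell (0 rose without C2L 6, 1 without C2L 4 or T2L 4, 2 without T2L 5). The summed level of the 13 was 2059 to 2434 CPM in CDXY, 4615 to 5937 CPM in CDXX, 2203 to 3041 CPM in C2L and 3018 to 4513 CPM in T2L. Of 9 hemocyte markers, which also include vkg, 3 rose (2 without CDXY 4, CDXY 5 or CDXX 6), with sums of 190 to 500 CPM in CDXY and 718 to 2456 CPM in CDXX. Of 6 fat body markers 1 rose (0 without CDXY 5, 2 without C2L 4 or T2L 5), with sums of 199.8 to 336 CPM in CDXY and 234 to 349 CPM in CDXX. Against C2L 1 of the 6 fell in T2L, where 4.05% of all genes tested fell. There 4 of the 6 had an unadjusted p under 0.05 in edgeR, and the median log2 fold change was -1.95. Their sums were 435 to 644 CPM in C2L and 575 to 594 CPM in T2L. The part of these tissues in the results was not tested.

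For each of the 5 genes the 3 genes of most similar pattern were named by the smallest root-mean-square difference of centred log2 CPM over the 15 libraries, as a description. For kumpel they were GC1 (0.16), CG6330 (0.18) and Oatp58Dc (0.21), and for Treh CG11883 (0.28), Oatp58Dc (0.30) and CG16779 (0.30). For bumpel they were Agpat2 (0.27), CG44245 (0.28) and bol (0.28), and for Tret1-1 Rift (0.30), Atf3 (0.32) and GstE1 (0.33). For rumpel they were CG31808 (0.36), Glyp (0.45) and MFS3 (0.46). Within the 5 genes Treh and bumpel were the closest pair (0.31) and rumpel and kumpel the farthest (1.32). The measure is not scaled to the spread of a gene, so its values cannot be compared between genes as closeness of pattern. The SD of log2 CPM over the 15 libraries was 1.64 for rumpel, 1.08 for Tret1-1, 0.652 for bumpel, 0.553 for Treh and 0.430 for kumpel.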

How the data were processed

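The deposited values were whole-number read counts per gene, not normalized by the authors, for 15 libraries of larval brain. The submitters' processing notes name Trim Galore, STAR 2.7.10a, featureCounts and the build dm6; libraries were poly(A)-selected and amplified for 13 cycles, per the labels' protocols. Strand setting, multiple matches and the gene filter are not given in the sources used here. Every gene had a mean count of at least 27. Positions and exon lengths came from an Ensembl annotation in dm6 coordinates.

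Counts were tested with edgeR 4.0.16 in R 4.3.3 (TMM scaling, filterByExpr by genotype, robust quasi-likelihood F test, 1 mean per genotype over all 15 libraries), two-sided, with 8981 genes tested and 9 removed. CPM used TMM-scaled library sizes. Replicates came from different days, so the p-values reflect variation among days and among pools of 3 brains. Replicates differed by far more than counting noise (squared differences 56.5 to 194 times that of sampling), so each was counted separately. The labels give the batch of each library, which pairs libraries across genotypes; whether a batch was 1 day for all genotypes is not stated. As a check, deviations of same-batch libraries from their genotype means correlated with a median of 0.13, over 0.1 in 16 of 30 pairs; the median for other pairs was -0.066. The fit was also run on simulated counts in which a small set of genes changed in random directions. The simulation had no shift of a whole chromosome arm, so it could not test the scaling used here.

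The genes described and the lists were chosen with earlier results of these data known. By rule, the text names up to 4 genes per list and main comparison, in order of adjusted p. Other called genes, and the ecdysone-timed genes shown, were named after their values were seen. Genes of similar pattern needed a mean of at least 5 CPM (prior count 2). Alternatives were size factors of DESeq2 1.42.0, its Wald test, other count filters, scaling by genes outside X and 2L, only the libraries compared, batch as a block, and each library left out. The alternatives for the other 8 pairs of genotypes and for the lists were chosen after seeing the data.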

Additional observations from a re-analysis of the deposited data

How the results depend on the processing

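No log2 fold change of the 5 genes in CDXX against CDXY or in T2L against C2L changed sign in any of 22 alternatives. The number of the 5 genes called in CDXX against CDXY was 3 in the reported fit, 5 with the Wald test of DESeq2, 5 with scaling by genes outside X and 2L, and 2 to 5 with 1 library left out. In T2L against C2L it was 1, and 2 with DESeq2, 0 with batch as a replicate block, and 0 to 2 with 1 library left out. The replicate block changed no other call of the 5 genes in the 2 main comparisons. Over the other 8 pairs of genotypes 4 calls became 9 with DESeq2 and 3 to 7 with 1 library left out, with 7 without Oregon 6. Over all genes, CDXX against CDXY gave 3942 calls (2876 to 3978 with 1 library left out, 3220 to 4298 otherwise). T2L against C2L gave 1408 (755 to 1475 with 1 library left out), with 755 without C2L 6, 927 without T2L 4 and 938 without T2L 5. Calls in the difference numbered 2004 (1484 to 2191 with 1 library left out), with 0 of the 5 genes in every alternative. The mean level of kumpel per kb moved from 4.92 to 16.1 CPM with its longest transcript as the length. The causes were not tested. With 3 libraries a genotype, the biological coefficient of variation was 24.9%. Within a genotype the CPM of rumpel varied by 37.8% (CDXX) to 106% (Oregon) of its mean, and that of bumpel by 4.71% in CDXX. The lowest count behind any value of the 5 genes was 53.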

Other observations

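Genes listed for lactate and monocarboxylate transport, together with genes of lactate, pyruvate and sorbitol metabolism, moved in CDXX as well. Of 12 measured, 6 rose in CDXX against CDXY and none fell, where 23.1% of all genes tested rose and 20.8% fell. The median log2 fold change of the 12 was 0.42. Ldh, lactate dehydrogenase, rose by 3.38 on the log2 scale (SE 0.79, edgeR adjusted p = 0.00504), from 19.6 ± 4.29 to 204 ± 130 CPM (SD, n = 3 each). The other calls were CG8925 (5.08), Sodh2, a sorbitol dehydrogenase (2.10), CG13907 (1.99), out (1.91) and Mpc1, a mitochondrial pyruvate carrier gene (0.49, adjusted p = 0.0486). Mpc1 was not called with batch as a replicate block (0.0589), with size factors of DESeq2 (0.0514) or without any filter (0.0535), and not without any 1 of 10 libraries (0.0566 without T2L 5, 0.0568 without T2L 4, 0.0621 without C2L 6, 0.0649 without Oregon 5, 0.0704 without CDXY 6, 0.0754 without CDXX 4, 0.0892 without CDXX 5, 0.0936 without CDXY 4, 0.11 without CDXX 6 and 0.153 without CDXY 5). In CDXY CG8925 had a mean of 0.164 CPM. In T2L against C2L, 2 of 12 rose, Bsg on 2L (0.44) and Sodh2 (1.75), the latter not without T2L 4 (adjusted p = 0.0675), C2L 6 (0.0674) or C2L 4 (0.0616). Of all genes tested 11.6% rose there, and of those on 2L 51.9%.

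Of 19 measured genes of nutrient and growth factor signalling, 9 rose and 2 fell in CDXX, against 23.1% and 20.8% of all genes tested. AMPKalpha, the catalytic subunit of the energy-sensing kinase, rose by 0.87 on the log2 scale (edgeR adjusted p = 0.000126) and SNF4Agamma, its regulatory subunit, by 0.77 (0.000759). The activin-type ligand gene daw rose by 2.22 (0.00246), while Ilp6, an insulin-like peptide gene, fell by 1.31 (0.00323) and the insulin receptor gene InR fell by 0.80 (0.00802). AMPKalpha and Ilp6 lie on X, whose genes had a median of 0.45 and of which 57.6% rose. In T2L 2 of 19 rose, against 11.6% of all genes tested, Mondo (0.78) and Mad (0.40). Both lie on 2L, where the median was 0.47 and 51.9% of genes rose. Mad was not called in T2L without T2L 4 (edgeR adjusted p = 0.0543) or C2L 6 (0.0561). DESeq2 called 4 higher there, adding tkv (0.0377) and sug (0.0344), and 1 lower, InR (0.0369). The rises in CDXX numbered 5 without CDXX 4 or CDXY 5 and 6 without CDXY 6.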
